A study of Mus musculus with 6 samples.

Results

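The genes that build, load and accompany major histocompatibility complex (MHC) class II molecules were examined in macrophages sorted from Day 3 skin wounds of young and aged mice. The set holds 10 genes, listed by name, and each was taken as the row of the deposited table that carries its symbol. All 10 were among the 15168 genes of that table and among the 11878 that passed the filter on low counts. Bulk RNA-sequencing had been carried out on CD45+ CD11b+ CD64+ F4/80+ cells sorted from full-thickness excisional wounds on the backs of female wild-type C57BL/6J mice, 3 samples from young mice of 12 weeks and 3 from aged mice of 24 months, in sets named A, B and C. The sort panel left out an antibody to MHC class II, so class II was not used to choose the cells, and it had no gate against Ly6G, a neutrophil antigen. The sources do not say whether the samples of an age came from separate animals or pools, so the p-values measure only the spread between these samples, which may be technical.

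A class II molecule is a pair of chains, alpha and beta, that shows peptides from taken-up material to CD4+ T cells. The pair is assembled on the invariant chain, which is then cut down in endosomes, and the DM heterodimer exchanges its last fragment for a peptide. Transcription of these genes runs through the coactivator CIITA, which interferon gamma induces and which acts through factors bound to the X and Y boxes of the promoters; CD80 and CD86 at the cell surface supply the second signal to the T cell.

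Total expected counts were 16263373, 15642483 and 15282178 in young A, B and C. In aged A, B and C they were 15270103, 15998054 and 17927483. Levels are given as counts scaled to library size (CPM), means with their SD over n = 3 samples, and differences as log2 fold changes of aged against young from edgeR. At these depths 1 count was worth 0.0553 to 0.0701 CPM. Young A stood apart from the other young samples. Over all tested genes the chi-square per degree of freedom was 117 between young A and young B and 121 between young A and young C, against 31.9 between young B and young C. Among the aged samples A stood apart in a like way, with 94.0 between A and C and 119.5 between A and B, against 45.2 between B and C. Results that rest on young A are therefore given with and without it, and ranges over leaving out each sample are given too.

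No common shift of the set between ages was detected in these samples. With edgeR's quasi-likelihood test and Benjamini-Hochberg adjustment over all tested genes, 1 of the 10 members passed an adjusted p of 0.05 as lower in aged samples, Ifi30, where 7.97% of all tested genes did. Likewise 1 of 10 passed as higher, Cd80, where 9.73% of all tested genes did. The aged samples lay all below the young ones for 2 of 10 members, Ifi30 and Ciita, beside 19.0% of tested genes, and all above them for 1, Cd80, beside 19.2%. These counts were close to the shares of all genes. Without young A the same 2 genes, Ifi30 and Cd80, passed, but 0 members passed without young B, young C or aged C. Log2 fold changes were negative for 8 of the 10 members, with a median of -0.45 beside -0.02 over all tested genes, but without young A those of Cd74, H2-Aa, H2-Ab1 and H2-Eb1 turned positive. In such bulk samples, fewer cells that express a gene and less of its RNA in each cell cannot be told apart.

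**Figure D1:**
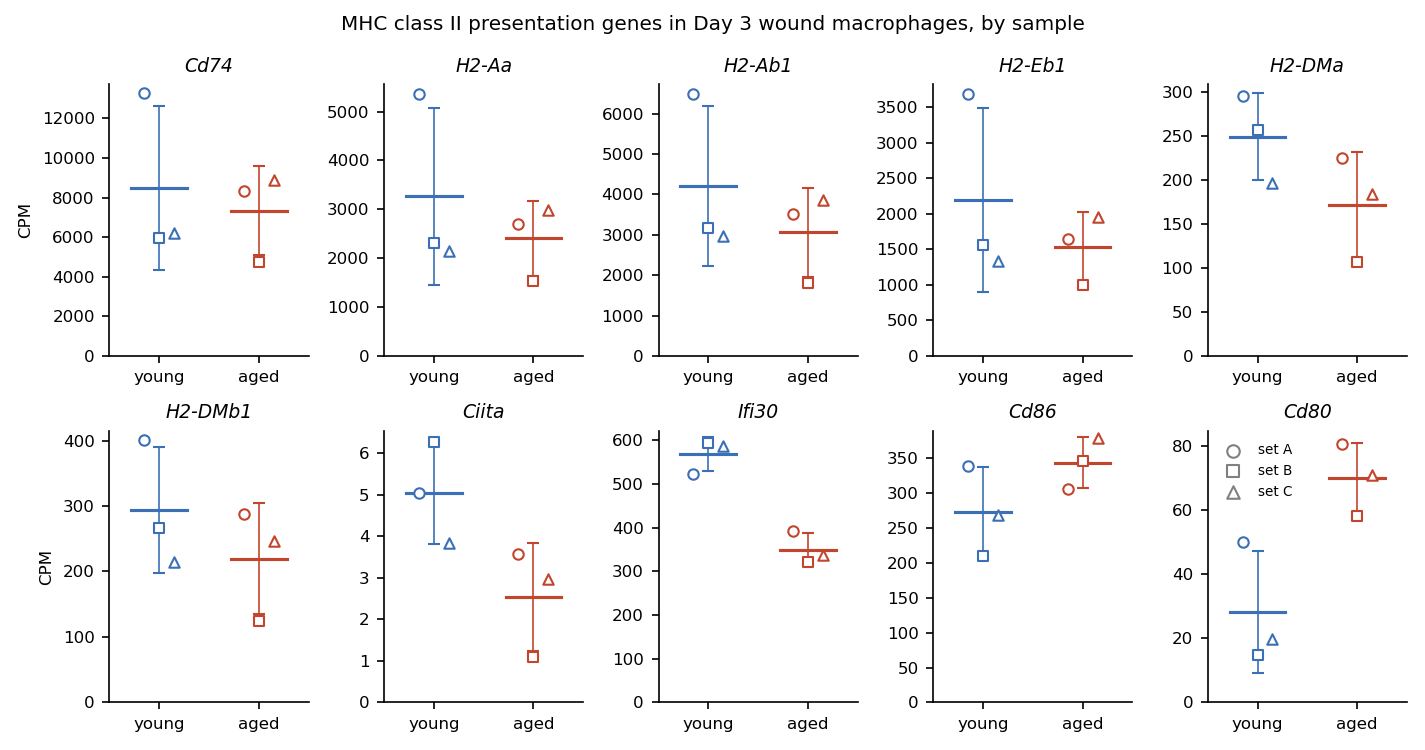
CPM of the 10 genes in each sample, with young samples in blue, aged samples in red and sets A, B and C as circles, squares and triangles; horizontal bars are means and error bars SD (n = 3), and each vertical axis starts at 0. Young A is the highest sample for Cd74, H2-Aa, H2-Ab1, H2-Eb1, H2-DMa and H2-DMb1 and aged B the lowest, while the ages do not overlap for Ciita, Ifi30 and Cd80.

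Cd74 encodes the invariant chain (mm10 chr18:60803848-60812652, + strand). Its level was 13260.4, 5963 and 6213 CPM in young A, B and C, and 8345, 4749.8 and 8905 in aged A, B and C. Young A was thus the highest sample and aged B the lowest, and the other 4 lay between them with aged A and C above young B and C. The means were 8479 ± 4143 and 7333 ± 2255 CPM in young and aged samples (SD, n = 3). The log2 fold change was -0.21 (standard error 0.34, 95% interval -0.97 to 0.55, adjusted p = 0.699 in the edgeR quasi-likelihood test, Benjamini-Hochberg adjusted). Without young A it was 0.27 (adjusted p = 0.523 in the same edgeR test), and without aged B 0.037 (adjusted p = 0.953), so its sign rested on these samples.

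The chain genes H2-Aa, H2-Ab1 and H2-Eb1 lie with H2-DMa and H2-DMb1 in 197 kb of chromosome 17. H2-Aa (chr17:34282744-34287823, - strand) and H2-Ab1 (chr17:34257689-34269419, + strand) encode the alpha and beta chains of I-A, the class II molecule of C57BL/6 mice. H2-Eb1 (chr17:34305867-34316674, + strand) encodes the beta chain of I-E, which this strain does not display because its alpha chain gene is defective.

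The table of RefSeq promoters (GRCm38.p6, the assembly of mm10), each running from 250 bases before to 50 bases after a start site, matched 6 of the 10 members. It was searched on both strands for ATTGG, the core of the Y box, for the longer CTGATTGG, which contains it, and for CCNAGNNAC, a pattern of the X1 box. Because levels of these genes varied together across samples, the promoters of H2-Aa, H2-Eb1 and H2-DMb1 are shown with every match to these motifs, on either strand, in capitals.
H2-Aa promoter: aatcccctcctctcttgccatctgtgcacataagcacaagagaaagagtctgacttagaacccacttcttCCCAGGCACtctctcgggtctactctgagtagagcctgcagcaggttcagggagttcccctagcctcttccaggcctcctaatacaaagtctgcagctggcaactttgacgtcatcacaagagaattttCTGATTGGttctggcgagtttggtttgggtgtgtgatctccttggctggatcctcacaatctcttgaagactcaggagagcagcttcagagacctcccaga
H2-Eb1 promoter: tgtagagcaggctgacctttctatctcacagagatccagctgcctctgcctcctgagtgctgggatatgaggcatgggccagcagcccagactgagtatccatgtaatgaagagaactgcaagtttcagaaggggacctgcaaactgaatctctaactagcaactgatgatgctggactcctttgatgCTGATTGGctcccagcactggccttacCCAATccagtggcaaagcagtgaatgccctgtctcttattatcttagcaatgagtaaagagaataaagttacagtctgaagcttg
H2-DMb1 promoter: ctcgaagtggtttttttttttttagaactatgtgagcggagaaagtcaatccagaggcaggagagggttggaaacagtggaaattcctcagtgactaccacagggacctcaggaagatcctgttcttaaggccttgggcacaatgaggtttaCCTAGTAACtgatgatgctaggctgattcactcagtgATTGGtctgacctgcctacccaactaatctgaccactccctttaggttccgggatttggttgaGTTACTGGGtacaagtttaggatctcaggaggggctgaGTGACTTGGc

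These windows are chr17:34287774-34288073 on the - strand for H2-Aa, chr17:34305617-34305916 on the + strand for H2-Eb1 and chr17:34152941-34153240 on the + strand for H2-DMb1. ATTGG began 48 bases before the start site that the table gives for H2-Aa, 59 before that of H2-Eb1 and 61 before that of H2-DMb1. The start sites of H2-DMb1, H2-DMa and Cd80 in that table lie inside the gene ranges given here, which begin further upstream. Of all 32851 promoters in the table, 37.4% held ATTGG and 4.10% held CTGATTGG, which the H2-Aa and H2-Eb1 windows contain and the H2-DMb1 window does not. CCNAGNNAC was in 17.3% of promoters and had matches in the H2-Aa and H2-DMb1 windows. The H2-Aa match began 180 bases before the start site, far from its ATTGG, and the first H2-DMb1 match 98 bases before. In the H2-Eb1 window the letters actagcaac, upstream of ATTGG, missed the pattern only at their first base. CCNAGNNAC followed on the same strand by ATTGG with 15 to 35 bases between them was in 123 promoters, 0.374% of the table, and of the members H2-DMb1 had it, with 28 bases between. The H2-Oa and H2-Ob windows, of genes for the DO heterodimer outside the set, had it too, with 28 and 25 bases between. The windows of Ifi30, Cd80 and H2-DMa at chr17:34122582-34122881 had no match, and a second H2-DMa window at chr17:34125268-34125567 had 1 match to ATTGG. Cd74, H2-Ab1, Ciita and Cd86 have no entry. A match describes these letters and is not a measured binding site.

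H2-Aa was at 5358, 2301 and 2137 CPM in young A, B and C, and at 2705, 1532 and 2979 in aged A, B and C. H2-Ab1 was at 6488, 3157 and 2972 CPM in young A, B and C and at 3517, 1794 and 3865 CPM in aged A, B and C. For H2-Eb1 the same samples were at 3681, 1556 and 1335 CPM and at 1652, 994 and 1948 CPM. The 6 samples fell in the same order for all 3 chain genes, from aged B through young C, young B, aged A and aged C to young A, so the ages overlapped throughout. Young A exceeded the mean of young B and C 2.41-fold for H2-Aa, 2.12-fold for H2-Ab1 and 2.55-fold for H2-Eb1.

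Mean H2-Aa was 3265 ± 1814 and 2405 ± 769 CPM in young and aged samples, mean H2-Ab1 4205 ± 1979 and 3059 ± 1109 CPM, and mean H2-Eb1 2191 ± 1295 and 1531 ± 489 CPM (SD, n = 3). In each case the difference between ages was smaller than the SD of the young samples. The log2 fold change of H2-Aa was -0.44 (95% interval -1.25 to 0.37), that of H2-Ab1 -0.46 (-1.24 to 0.32) and that of H2-Eb1 -0.52 (-1.35 to 0.32), with adjusted p = 0.422, 0.384 and 0.359 in the edgeR quasi-likelihood test, Benjamini-Hochberg adjusted. These intervals contain 0 and also falls of more than 2-fold. Without young A the same differences were 0.12, 0.0028 and 0.088 (adjusted p = 0.794, 0.996 and 0.852 in that edgeR test). The counts of Cd74 and the 3 chain genes together took 3.20%, 1.41% and 1.25% of the library in young A, B and C, and 1.52%, 0.890% and 1.60% in aged A, B and C.

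While levels differed by more than 2-fold among the young samples for Cd74 and each chain gene, the proportions among these genes varied less. The ratio of H2-Aa to H2-Ab1 CPM ran from 0.719 in young C to 0.854 in aged B, and that of H2-Eb1 to H2-Aa from 0.611 in aged A to 0.687 in young A. Cd74 CPM over the summed CPM of the 3 chain genes, a ratio chosen after the values were seen, was 0.854, 0.850 and 0.964 in young A, B and C and 1.06, 1.10 and 1.01 in aged A, B and C. The aged samples were all above the young ones in this ratio, and young C lay next to them. It averaged 0.889 ± 0.065 in young and 1.06 ± 0.043 in aged samples (SD, n = 3); it was not tested.

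**Figure D2:**
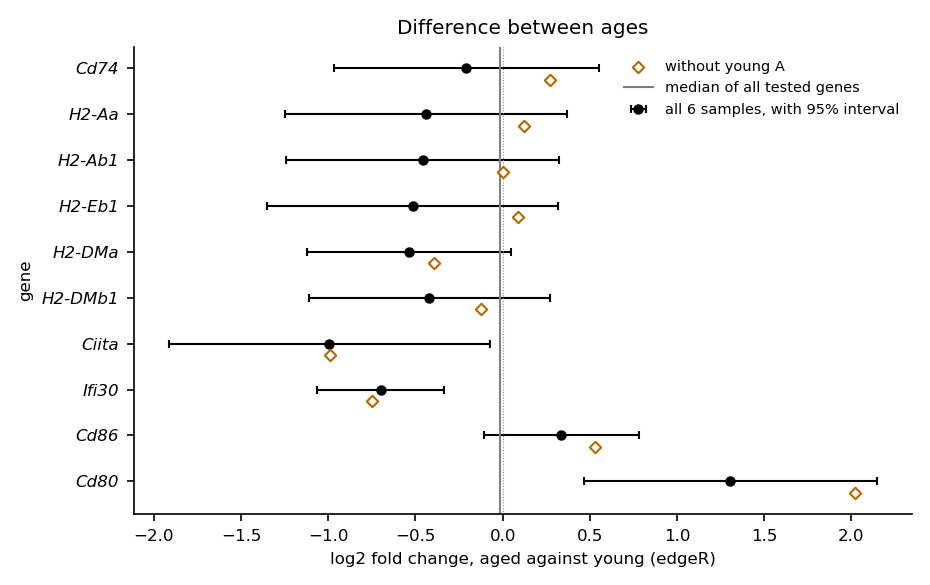
Log2 fold change of aged against young samples for each gene (black, with 95% intervals, 6 samples) and without young A (open diamonds); the grey line is the median of all tested genes, -0.02. Cd74, H2-Aa, H2-Ab1 and H2-Eb1 move across 0 when young A is left out, while Ciita and Ifi30 stay below 0 and Cd86 and Cd80 above it.

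H2-DMa and H2-DMb1 encode the chains of DM, the peptide editor. H2-DMa (chr17:34119541-34139101, + strand) was at 295, 256 and 197 CPM in young A, B and C, and at 225, 106 and 185 CPM in aged A, B and C. Young A and B were above all aged samples, while young C lay between aged A and aged C. The means were 249 ± 49.5 and 172 ± 60.4 CPM (SD, n = 3), and the log2 fold change was -0.54 (standard error 0.26, 95% interval -1.12 to 0.05, adjusted p = 0.179 in the edgeR quasi-likelihood test, Benjamini-Hochberg adjusted). Without young A it was -0.39, and over the 6 fits that left out a sample it ran from -0.78 without aged A to -0.27 without aged B (adjusted p = 0.0838 to 0.438 in the same edgeR test). Exons of Brd2, on the other strand, share 360 bases with those of H2-DMa in GENCODE M21, and reads there cannot be assigned to either gene without strand, which is not stated for the counting; over the 6 samples the table gives 11073.7 counts to Brd2 and 20554 to H2-DMa.

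H2-DMb1 (chr17:34153072-34160230, + strand) was at 401, 266 and 214 CPM in young A, B and C and at 287, 125 and 246 CPM in aged A, B and C. The ages were interleaved, with aged B lowest and young A highest. Means of 294 ± 96.3 and 219 ± 84.6 CPM (SD, n = 3) gave a log2 fold change of -0.42 (95% interval -1.11 to 0.27, adjusted p = 0.366 in the edgeR test). Leaving out young A or aged B brought it nearer to 0, to -0.12 and -0.13 (adjusted p = 0.809 and 0.782 in the edgeR test), while without aged A it was -0.66 (adjusted p = 0.201). H2-DMb2 is a near-identical neighbour whose reads can be split with it, and its counts were 2.07% to 4.12% of those of H2-DMb1. With the counts of both summed, an alternative chosen after seeing the data, the log2 fold change was -0.41 (adjusted p = 0.385 in the edgeR test; over all alternatives for H2-DMb1, adjusted p = 0.201 to 0.809). The summed CPM of the DM genes was 4.48%, 7.45% and 6.38% of that of the 3 chain genes in young A, B and C, and 6.51%, 5.34% and 4.90% in aged A, B and C. The share was thus lowest in young A, where the chain genes were highest.

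Ciita (chr16:10480059-10528418, + strand), the coactivator, had 91, 107 and 58 counts in young A, B and C and 51, 17 and 48 counts in aged A, B and C. These are 5.03, 6.28 and 3.83 CPM in the young and 3.57, 1.08 and 2.96 CPM in the aged samples. All aged samples were below all young ones, with young C and aged A 1.07-fold apart. The means of 5.05 ± 1.22 and 2.54 ± 1.30 CPM (SD, n = 3) gave a log2 fold change of -0.99 (standard error 0.42, 95% interval -1.91 to -0.07). In the edgeR quasi-likelihood test the unadjusted p was 0.0368 and the Benjamini-Hochberg adjusted p = 0.118, so Ciita did not pass. Without young A the log2 fold change was again -0.99 (adjusted p = 0.161 in the edgeR test), and with each sample left out in turn it ran from -1.31 without aged A to -0.62 without aged B (adjusted p = 0.0843 and 0.249). Among young samples Ciita did not follow the chain genes, since young A, highest for those, was in the middle for Ciita. Among aged samples B was lowest for both. Exons of Dexi, on the other strand, share 329 bases with those of Ciita, and Dexi has 465 counts over the 6 samples against 372 for Ciita, so part of these few counts is uncertain in the same way.

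Ifi30 (chr8:70762774-70766663, - strand) encodes the thiol reductase GILT, which opens disulfide bonds of proteins in endosomes before they are cut into peptides. It was at 523, 594 and 586 CPM in young A, B and C, and at 392, 320.5 and 337 in aged A, B and C. All aged samples were below all young ones, with the nearest, young A and aged A, 1.34-fold apart. The means were 568 ± 38.8 and 349.7 ± 37.4 CPM in young and aged samples (SD, n = 3). Ifi30 fell, its log2 fold change being -0.70 (standard error 0.16, 95% interval -1.06 to -0.33, adjusted p = 0.0208 in the edgeR quasi-likelihood test, Benjamini-Hochberg adjusted). Without young A it was -0.75 (adjusted p = 0.0167 in that edgeR test). Across the 6 fits with a sample removed the log2 fold change ran from -0.79 to -0.63. The adjusted p in these edgeR fits ran from 0.0167 to 0.0932, with values above 0.05 without young B, young C, aged B or aged C. Its within-age pattern was unlike that of the chain genes, as young A was the lowest of the young samples for Ifi30.

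Cd86 and Cd80 encode the costimulatory ligands that bind CD28 and CTLA-4 on T cells, and lie on chromosome 16 (Cd86 chr16:36603869-36666081, - strand; Cd80 chr16:38455561-38496335, + strand). Cd86 was at 339, 209.9 and 269 CPM in young A, B and C, and at 306, 346 and 379 CPM in aged A, B and C. Young A lay within the range of the aged samples, and young B and C below it. The means of 272 ± 64.5 and 344 ± 36.6 CPM (SD, n = 3) gave a log2 fold change of 0.34 (95% interval -0.11 to 0.78, adjusted p = 0.260 in the edgeR quasi-likelihood test, Benjamini-Hochberg adjusted), and without young A 0.53 (adjusted p = 0.0751 in the edgeR test; 0.0751 to 0.585 over all alternatives for Cd86).

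Cd80 was at 50.2, 14.8 and 19.7 CPM in young A, B and C, and at 80.6, 58.3 and 71.0 in aged A, B and C. All aged samples were above all young ones, with young A 1.16-fold below aged B and far above the other young samples. The means were 28.3 ± 19.2 and 70.0 ± 11.2 CPM in young and aged samples (SD, n = 3), a ratio of 2.48. Cd80 rose, its log2 fold change being 1.31 (standard error 0.38, 95% interval 0.47 to 2.14, adjusted p = 0.0400 in the edgeR quasi-likelihood test, Benjamini-Hochberg adjusted). Without young A it was 2.02 (adjusted p = 0.00136 in the edgeR test), and over the 6 fits that left out a sample the log2 fold change ran from 1.003 to 2.02 and the adjusted p from 0.00136 to 0.159, above 0.05 without young B, young C, aged A or aged C.

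Measured against each other, the ligands differed in proportion. Cd80 CPM was 14.8%, 7.07% and 7.35% of Cd86 CPM in young A, B and C, and 26.3%, 16.8% and 18.7% in aged A, B and C. All aged samples were above all young ones in this share, which was also chosen after the values were seen. Cd86 CPM as a share of the summed CPM of the 3 chain genes was 2.18%, 2.99% and 4.17% in young A, B and C and 3.89%, 8.01% and 4.31% in aged A, B and C, with aged A below young C.

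Per kilobase of transcript (the principal transcript of GENCODE M21, or for Ifi30 its longest), the levels in young samples were 6013 ± 2938 CPM per kb for Cd74, 3469.8 ± 1633 for H2-Ab1, 2895 ± 1608 for H2-Aa and 1313 ± 776 for H2-Eb1 (SD, n = 3). Ifi30 followed at 579 ± 39.5 CPM per kb, then H2-DMb1 at 209 ± 68.6, H2-DMa at 150.5 ± 29.9 and Cd86 at 107 ± 25.4. Cd80 at 8.91 ± 6.04 CPM per kb and Ciita at 0.840 ± 0.204 came last. In aged samples the order was the same except that Cd86, at 135 ± 14.4 CPM per kb, stood above H2-DMa, at 104 ± 36.4. Taken as mean ± SD, H2-Ab1 overlapped with H2-Aa, H2-DMb1 with the gene next below it and H2-DMa with Cd86 at both ages, and in young samples Cd74 overlapped with H2-Ab1, H2-Aa with H2-Eb1 and H2-Eb1 with Ifi30. The other neighbours in the order did not overlap at the age concerned. With the union of all annotated exons as the length, H2-Eb1 came before H2-Aa and Cd86 before H2-DMa in the means over all samples, and the other places were as before.

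The spread within an age set most of these genes apart from Ifi30. Of the 6588 tested genes with a mean of at least 10 CPM, 9 are members, and for 7 of these the pooled within-age SD of log2 CPM was above the percentile 90. It was 0.58 for Cd74, 0.64 for H2-Aa, 0.62 for H2-Ab1, 0.66 for H2-Eb1 and 0.67 for Cd80, beside a median of 0.23 over those genes. H2-DMb1 was at 0.56 and H2-DMa at 0.45. Cd86 at 0.27 stood at the percentile 61.0 and Ifi30 at 0.13 at the percentile 12.9, so the member with the narrowest spread was also the member that passed as lower.

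**Figure D3:**
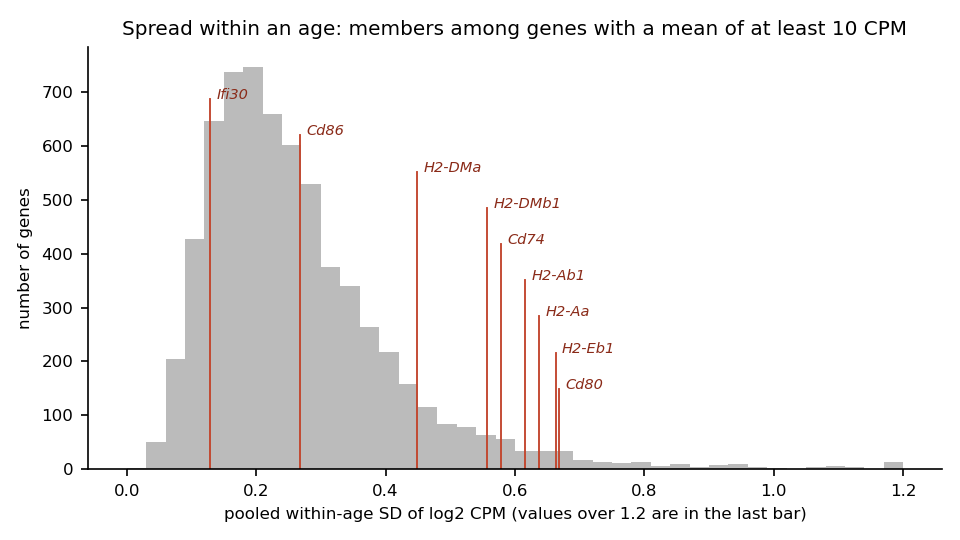
Number of genes by pooled within-age SD of log2 CPM, for tested genes with a mean of at least 10 CPM (grey), with 9 members marked by red lines. Ifi30 lies on the left of the distribution at 0.13, Cd86 near its middle at 0.27, and the other 7 in its right tail from 0.45 to 0.67.

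Cd74 and the chain genes shared their spread, other members followed it to differing degrees and Ifi30 did not. Relative to the mean of its own age, the mean log2 CPM of Cd74, H2-Aa, H2-Ab1 and H2-Eb1 was 0.81, -0.36 and -0.45 in young A, B and C and 0.23, -0.61 and 0.38 in aged A, B and C. Young A was thus 1.75-fold above its age and aged B at 0.657 of its own. As a description over the 6 samples, H2-DMb1 correlated with this pattern at r = 0.913, Cd80 at 0.868 and H2-DMa at 0.792. Cd86 correlated with it at 0.612, Ciita at 0.574 and Ifi30 at -0.143. Cd80 deviated from its age mean in the same direction as this pattern in each of the 6 samples.

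**Figure D4:**
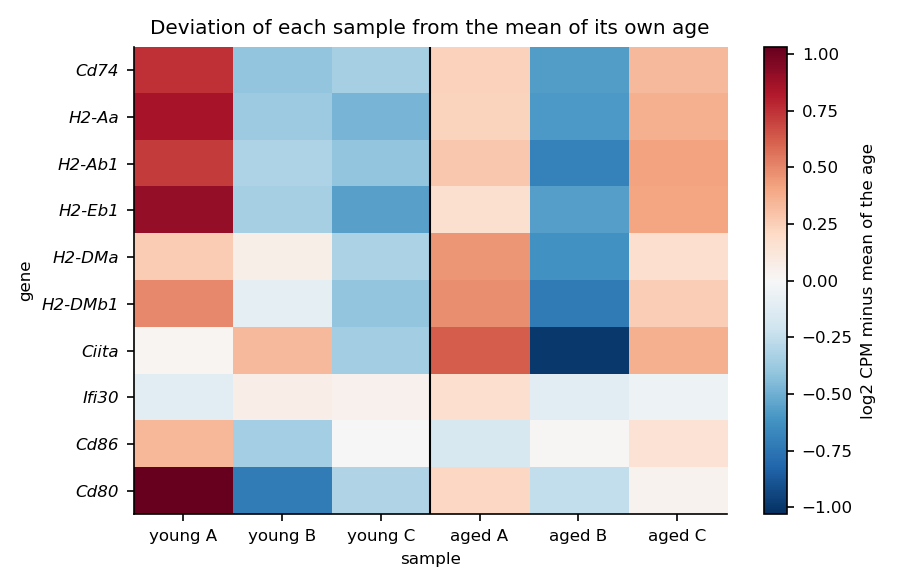
Difference of each sample's log2 CPM from the mean of its own age, for each gene (rows) and sample (columns), from blue (below) to red (above). Young A is red and aged B blue for Cd74 and the chain and DM genes, and the Ifi30 row is nearly white.

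Among 6579 other genes with a mean of at least 10 CPM, those whose deviations were among the most like this shared pattern over the 6 samples included Rhob (r = 0.994), Lztfl1 (0.993), Ube2q1 (0.991), Zbtb21 (0.991), Acly (0.989), Id2 (0.988) and Smox (0.983). Of these 6579 genes, 67 had r over 0.95. With so many genes and few samples some high values can arise by chance, and they are given as a description.

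Markers of other cells were read beside the chain genes, including cells that the sort should remove, such as keratinocytes and fibroblasts, which lack CD45, and their part in the class II levels was not tested. Of 9 dendritic cell markers, 0 passed in either direction in the edgeR quasi-likelihood test, Benjamini-Hochberg adjusted (1 higher at an unadjusted p under 0.05, and 0 with DESeq2 and with limma-voom), with log2 fold changes from -1.02 for Cd207 to 1.54 for Ccr7 and a median of 0.49. Their summed CPM was 171, 120.0 and 91.3 in young A, B and C and 142, 131 and 111 in aged A, B and C, with Clec10a the most abundant at 81.9 ± 17.0 and 60.6 ± 29.3 CPM in young and aged samples (SD, n = 3). The sum was highest in young A, as the chain genes were, but among the aged samples it was lowest in C. By gene, 6 of the 9 were highest among the young in A and 6 lowest among the aged in B, and 3 were both, Xcr1, Ccr7 and Itgax, whereas Clec10a was highest among the aged in B.

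B cells also make class II molecules, and 2 of 3 tested B cell markers fell, where 7.97% of all tested genes did. They were Ighm, the most abundant, and Cd79b, with log2 fold changes of -1.62 and -1.58 (adjusted p = 0.0172 and 0.0308 in the edgeR quasi-likelihood test, Benjamini-Hochberg adjusted). The B cell markers summed to 69.6, 162 and 62.4 CPM in young A, B and C and to 33.6, 26.2 and 42.0 CPM in aged A, B and C. They peaked in young B, where the chain genes did not. Cd79a, Ms4a1 and Blk were not tested and had at most 0.573 CPM in any sample. Their means went the other way, at 0.0369, 0.179 and 0.0184 CPM in young and 0.253, 0.325 and 0.249 CPM in aged samples. The tested T cell marker, Cd4, fell with a log2 fold change of -1.76 (adjusted p = 0.0386 in the edgeR test), and the T cell and NK markers together reached 1.67 to 4.81 CPM.

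Of 8 neutrophil markers 3 rose, where 9.73% of all tested genes did. They were Cd177, Cxcr2 and Retnlg, with log2 fold changes of 1.62, 1.13 and 0.85 (adjusted p = 0.0116, 0.0340 and 0.0393 in the edgeR quasi-likelihood test, Benjamini-Hochberg adjusted). S100a9 was the most abundant of their list. The list summed to 484, 887 and 757 CPM in young A, B and C. In aged A, B and C it summed to 1152, 664 and 1224 CPM. The sum was thus lowest in young A, the sample highest in the chain genes. Among the aged samples it was lowest in B, as the chain genes were, and 8 of the 8 markers were lowest there. Of 5 monocyte markers 0 passed in edgeR (2 higher at an unadjusted p under 0.05, 2 with DESeq2 and 0 with limma-voom), with log2 fold changes from -0.16 for Ccr2 to 0.95 for Chil3, the most abundant, and sums of 1159, 2054 and 2813 CPM in young A, B and C and 3740.4, 3024 and 2702 CPM in aged A, B and C. Keratinocyte and fibroblast markers, of which Col3a1 was the most abundant over the samples, summed to 222 CPM in aged B, the sample lowest in the chain genes, and to 12.1 to 39.2 CPM in the others. Of these 1 of 5 tested passed in edgeR as higher, where 9.73% of all tested genes did, and 0 with DESeq2 or limma-voom. It was Krt14, at 80.2 CPM in aged B and at most 0.865 CPM elsewhere.

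Of the 6 genes of the sort and of macrophage identity, Itgam (CD11b) rose with a log2 fold change of 0.99 and Adgre1 (F4/80) fell with -0.69 (adjusted p = 0.00735 and 0.0292 in the edgeR quasi-likelihood test, Benjamini-Hochberg adjusted), while Ptprc, Fcgr1, Csf1r and Mertk did not pass, with log2 fold changes of 0.26, 0.15, 0.12 and -0.72. For Itgam and Adgre1, young A was the lowest of the young samples, unlike the chain genes.

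Of 10 genes for class II transcription 2 rose and 0 fell in edgeR, where 9.73% of all tested genes rose and 7.97% fell. The list's median log2 fold change was 0.19 beside -0.02 over all tested genes. At an unadjusted p under 0.05 in edgeR 0 were lower, and 0 were lower with DESeq2 or with limma-voom. The 2 that rose, Nfya and Nfyb, encode subunits of NF-Y, known as a factor of the Y box. Binding of NF-Y at the printed promoters was not measured. Nfya was at 5.59, 5.05 and 7.86 CPM in young A, B and C and at 8.55, 16.0 and 13.6 CPM in aged A, B and C. For either gene all aged samples were above all young ones, beside 19.2% of tested genes. Their log2 fold changes were 1.05 and 0.80 (adjusted p = 0.0328 and 0.0208 in the edgeR quasi-likelihood test, Benjamini-Hochberg adjusted). Spi1, the most abundant of the list, did not pass (log2 fold change 0.15).

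Genes of interferon gamma signalling, upstream of Ciita, are described in part, without a count or median for their list. The receptor chain Ifngr2, the kinase Jak2 and the feedback inhibitor Socs1 rose, with log2 fold changes of 0.83, 1.57 and 1.65 (adjusted p = 0.0208, 0.00195 and 0.0172 in the edgeR quasi-likelihood test, Benjamini-Hochberg adjusted). Ifngr1, the most abundant, did not pass (log2 fold change 0.11), and Ifng, at most 0.553 CPM in any sample, was not tested.

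Among 11 genes of endosomal antigen processing 1 fell and 0 rose in edgeR, where 7.97% of all tested genes fell and 9.73% rose. The median log2 fold change was -0.24. At an unadjusted p under 0.05 in edgeR 1 was higher and 3 lower, against 1 and 2 with DESeq2 and 0 and 1 with limma-voom. The gene that fell, Ctss, encodes cathepsin S, which makes the last cut in the invariant chain. Ctss was at 4292, 4591 and 5497 CPM in young A, B and C. In aged A, B and C it was at 3185, 2339 and 3356 CPM, all below the young samples, as for Ifi30 and for 19.0% of tested genes. Its log2 fold change was -0.70 (adjusted p = 0.0437 in the edgeR quasi-likelihood test, Benjamini-Hochberg adjusted). Ctsb, the most abundant, had a log2 fold change of -0.58 that did not pass (adjusted p = 0.0979 in the edgeR test).

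Of 13 tested genes of class II turnover and trafficking 1 rose and 1 fell, where 9.73% of all tested genes rose and 7.97% fell. The list's median log2 fold change was 0.21. Tmem127 rose with 0.67, and Cd63, a tetraspanin of the compartment where class II is loaded, fell with -0.93 (adjusted p = 0.0350 and 0.0141 in the edgeR quasi-likelihood test, Benjamini-Hochberg adjusted). Lamp1, the most abundant, did not pass (log2 fold change -0.36). The other class II genes were scarce: of 3 tested, H2-Oa, H2-Ob and H2-DMb2, 0 passed in edgeR, at an unadjusted p under 0.05, with DESeq2 or with limma-voom, with log2 fold changes from 0.08 for H2-DMb2 to 0.31 for H2-Ob, and the most abundant, H2-DMb2, was at 7.34 ± 1.10 and 7.79 ± 3.98 CPM (SD, n = 3).

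Of 15 other ligands of T cell costimulation and inhibition 2 rose and 2 fell, where 9.73% of all tested genes rose and 7.97% fell. The list's median log2 fold change was -0.24 beside -0.02 over all tested genes. Cd274 (PD-L1), whose product also pairs with CD80 on the same cell, was at 61.0, 63.1 and 47.4 CPM in young A, B and C and at 181, 92.1 and 128 CPM in aged A, B and C. For it and for Pdcd1lg2 (PD-L2), as for Cd80, every aged sample was above every young one. Their log2 fold changes were 1.23 and 2.38 (adjusted p = 0.0122 and 0.0189 in the edgeR quasi-likelihood test, Benjamini-Hochberg adjusted). Cd48 and Lgals9 fell, with log2 fold changes of -1.05 and -0.78 (adjusted p = 0.00888 and 0.0181 in the edgeR test), and Icam1, the most abundant, did not pass (log2 fold change 0.33).

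**Figure D5:**
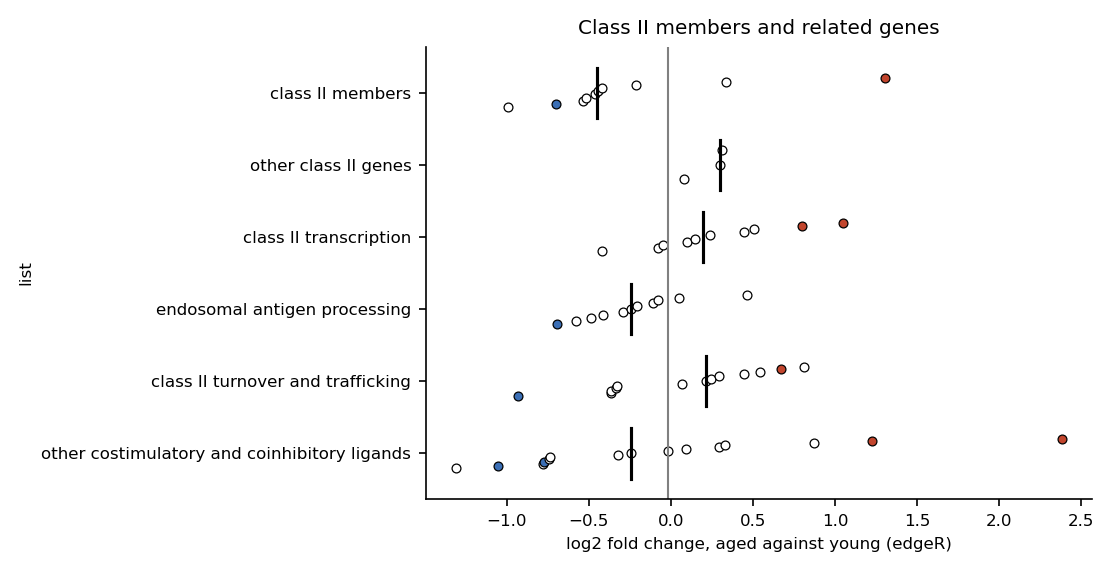
Log2 fold change of aged against young for the class II members and for each tested gene of 5 related lists; filled points passed an adjusted p of 0.05 in edgeR (red higher, blue lower), black bars are list medians and the grey line is the median of all tested genes, -0.02. With all samples the members' median, -0.45, lies left of those of the 5 lists. Without young A, which is not shown here, the log2 fold changes of Cd74, H2-Aa, H2-Ab1 and H2-Eb1 turned positive. Without young B or young C, also not shown, they moved further down.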

How the data were processed

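The authors aligned reads with STAR 2.7.3a to mm10 and quantified them on Ensembl transcripts (release 102) in Partek; the deposited values are expected counts per gene, not normalized, and whether the counting used strand is not stated. A second deposited table holds counts scaled with DESeq2 and the authors' own fold changes and p-values, and was not used. The expected counts were rounded and tested in R 4.3.3 with edgeR 4.0.16 (TMM, filterByExpr by age, quasi-likelihood test, Benjamini-Hochberg over 11878 genes); log2 CPM used a prior count of 2. Alternatives were DESeq2 1.42.0, limma-voom (limma 3.58.1), other scaling and filters, a 2-fold threshold, the set letter as a block, leaving out each sample, and, added after seeing the data, H2-DMb1 with H2-DMb2. The method was tested on simulated counts. Coordinates are mm10, with 1 subtracted from the deposited end, which lies past the annotated one. Lengths came from GENCODE M21 and promoters from RefSeq. Members and lists were chosen with earlier results of these data known. Named genes are all members, the sort genes, each list's passing genes (or extremes) and most abundant gene, and genes among the most alike; the interferon gamma list is described in part. Plots used Python 3.11.15, pandas 2.3.3 and matplotlib 3.10.9.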

Additional observations from a re-analysis of the deposited data

How the results depend on the processing

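Of the log2 fold changes of the 10 members under alternatives that kept all samples, 61 of 61 kept their direction and side of an adjusted p of 0.05, and every member ordered the 6 samples the same way with DESeq2 size factors. With a sample left out, 47 of 60 did, 8 lost the call (Ifi30 and Cd80) and 5 reversed: without young A, Cd74 at 0.27, H2-Aa at 0.12, H2-Ab1 at 0.0028 and H2-Eb1 at 0.088, and without aged B, Cd74 at 0.037. Over these fits Cd74 ran from -0.40 to 0.27, H2-Aa from -0.67 to 0.12, H2-Ab1 from -0.66 to 0.0028 and H2-Eb1 from -0.77 to 0.088, and the cause was not tested. Genes passing were 2103 in all, between 218 and 2702 with a sample left out, and members passing, 2, ran from 0 to 2. With a change of over 2-fold also asked, 1044 genes and 1 member passed, by the stricter threshold itself. With the set letter as a replicate block, 2114 genes and 2 members passed. Samples of the same letter deviated together at r = 0.181 for A, -0.021 for B and 0.114 for C. The value for A was the highest between any young and any aged sample, and young B was closest to aged C, at 0.047. With 3 samples per age such values cannot show whether the sets were shared. The labels do not say what the letters mark, so they were not taken as pairs. Depth limits Ciita most, with 17 counts in aged B.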
